A study of Mus musculus with 6 samples.

Results

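The genes examined were Creg1 and 38 genes of the lysosome, taken by name from the gene column of the deposited expression table, which gave 39 genes of 24421 rows. They comprised 7 cysteine proteases, 3 aspartic or serine proteases, 11 glycosidases or sulfatases, 5 enzymes or activators of lipid breakdown, 6 membrane proteins, 3 proteins of the proton pump, 2 transcription regulators and 2 secreted glycoproteins. RNA was measured by sequencing in islet β cells sorted for tdTomato fluorescence from mice 7 weeks old, in 3 control and 3 βDKO samples. Control animals were labelled MIP-CreERT with Brg1f/+ and Brm+/-, and βDKO animals MIP-CreERT with Brg1f/f and Brm-/-. Brg1 (Smarca4) and Brm (Smarca2) are alternative ATPases of Swi/Snf, a complex that remodels chromatin. The comparison gives the transcripts that differ between these genotypes in sorted cells, whether directly or indirectly. All animals carried 1 copy of a Cre-dependent tdTomato reporter at Rosa26, received tamoxifen and were of mixed C57BL/6J and 129SV background. The controls were therefore not wild type: they carried the insulin-promoter Cre transgene, a floxed Brg1 allele and a null Brm allele, and Cre activity was limited to cells that use the insulin promoter. The labels do not say whether samples came from separate animals or pools, so the p-values cover no more than the spread among the samples at hand, which can be technical.

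Lysosomes are acidic organelles in which proteins, glycans and lipids are broken down by hydrolases that work at low pH, and a proton-pumping ATPase in their membrane keeps that pH. Many lysosomal genes carry an E-box-like sequence called the CLEAR element in their promoters, through which the transcription factors TFEB and TFE3 can raise the transcription of many of them together. In β cells, lysosomes degrade insulin granules and damaged organelles, and Creg1 encodes a secreted glycoprotein that is also found in the endosomal and lysosomal compartment.

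CLEAR-type sequences were looked for in RefSeq promoter windows (GRCm38.p6), each running from 250 bases before to 50 bases after a transcription start. A window was found for 35 of the 39 genes; Ctsb, Ctsh, Galns and Asah1 had none. Searching both strands, CACGTG was present for 14 of the 35 genes (40%), against 8.09% of all 27025 genes with a window and 12.54% of the 7894 genes that had a window and were tested for expression. The longer TCACGTG, which contains CACGTG and reads CACGTGA on the other strand, was present for 12 of 35 (34.29%), against 4.29% of all genes and 7.55% of the tested genes. The palindrome TCACGTGA was present for 7 (20.0%), against 1.12% and 2.51%. A 10-base form that extends this palindrome at both ends was present for 1 of 35 (2.86%), against 0.37% and 0.96%. That gene was Cln3, which did not rise on both of the scales used below. The window of Creg1 held none of these. The stretches below are those of Gla, Gaa and Glb1, which were among the genes with the largest rises, and of Lamp1 and Atp6v1a, which did not rise on both of the scales used below. They are printed 5′ to 3′ on the gene's strand with TCACGTG or CACGTGA, or the palindrome that both make when they overlap, in capitals.

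Gla, chrX:134601216-134601243, minus strand: aagcgattgaTCACGTGAgcatctacgt

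Gla, chrX:134601183-134601210, minus strand: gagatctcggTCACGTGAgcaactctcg

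Gaa, chr11:119267812-119267838, plus strand: ttctgtgcgaTCACGTGtttgactctg

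Glb1, chr9:114401019-114401045, plus strand: tgcttctgagTCACGTGgcctacagag

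Lamp1, chr8:13159089-13159160, plus strand: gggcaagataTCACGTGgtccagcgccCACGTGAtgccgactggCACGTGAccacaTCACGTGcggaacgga

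Atp6v1a, chr16:44139374-44139401, minus strand: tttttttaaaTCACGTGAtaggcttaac

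The stretches of Gaa, Glb1 and Lamp1 lie upstream of the annotated gene, that of Atp6v1a lies within the annotated gene but in no exon, and both stretches of Gla overlap an exon of Hnrnph2 on the opposite strand. Lamp1 held 4 such runs within the 72 bases before its start and Gla held 2 palindromes.

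The deposited values are TPM, the standard relative transcript abundance, which divide reads by gene length and set every library to the same total. Ins1 and Ins2 together took 48.3%, 42.6% and 43.3% of TPM in controls 1 to 3 but 6.37%, 6.52% and 8.93% in βDKO 1 to 3, and the typical gene therefore had a higher TPM in βDKO (median log2 fold change 0.83 over 10404 tested genes). Each change is accordingly given also after dividing TPM by median-of-ratios size factors, called the rescaled values, on which the median was 0.03. Below, a gene rose or fell where it passed a limma adjusted p of 0.05 in that direction on both scales, and otherwise the scale is named. Fold changes come from log2(value + 1) and are understated for low genes. Whole reads recovered from the values summed to between 25389124 and 31282333 per library. The 2 libraries nearest to each other were βDKO 1 and βDKO 2 (SD of their log2 differences 0.161, against 0.294 to 0.453 for other pairs within a group).

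The targeted genes were examined before the lysosomal ones. Smarca4 was at 8.997, 13.5 and 12.4 TPM in controls and 10.6, 10.5 and 11.4 TPM in βDKO, and its log2 fold change on TPM was −0.08 (limma adjusted p = 0.667, SE 0.17) but −0.86 rescaled (SE 0.11, adjusted p = 5.62e-04). Smarca2 was at 14.1, 27.5 and 26.6 TPM in controls and 25.04, 23.2 and 22.4 TPM in βDKO, which gave 0.11 (SE 0.24, adjusted p = 0.684) and −0.71 (SE 0.17, adjusted p = 0.0101). On TPM the groups overlapped for both genes, and neither was lower on the deposited scale. Both values sum over the whole gene, also over exons that a deletion leaves in place, and so test the genotype incompletely. Exons of Smarca4 and Smarca2 overlap other annotated transcripts (Gm27373 on the same strand and 4931403E22Rik on the opposite strand).

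Most of the lysosomal genes rose in βDKO, with Creg1 far ahead of the others. Of the 39 genes, 36 passed the filter of at least 5 TPM in at least 3 libraries. Ctsc, Ctsh and Tfeb did not, and Lipa passed through the βDKO libraries alone, so whether Lipa was tested depended on its level there. On TPM all 36 tested genes were higher, where 81.4% of all tested genes were higher and 4.61% lower. On the rescaled scale 26 were higher and 2 lower, where 23.4% of all tested genes were higher and 21.1% lower. The same 26 therefore rose on both scales (23.4% of all genes did), none fell on both (4.61% of all genes did), and the remaining 8 were higher on TPM alone. The median log2 fold change of the 36 was 1.44 on TPM and 0.61 rescaled, and 1.40 and 0.56 without Creg1, beside 0.83 and 0.03 over all tested genes. Among the 36, 10 rose by at least 2-fold after rescaling, which 6.62% of all genes did, and in 28 every βDKO library lay above every control after rescaling, as in 31.0% of all genes. The number that rose was 21 without control 2, βDKO 1 or βDKO 2, 24 without control 3, 25 without βDKO 3 and 27 without control 1.

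**Figure D1:**
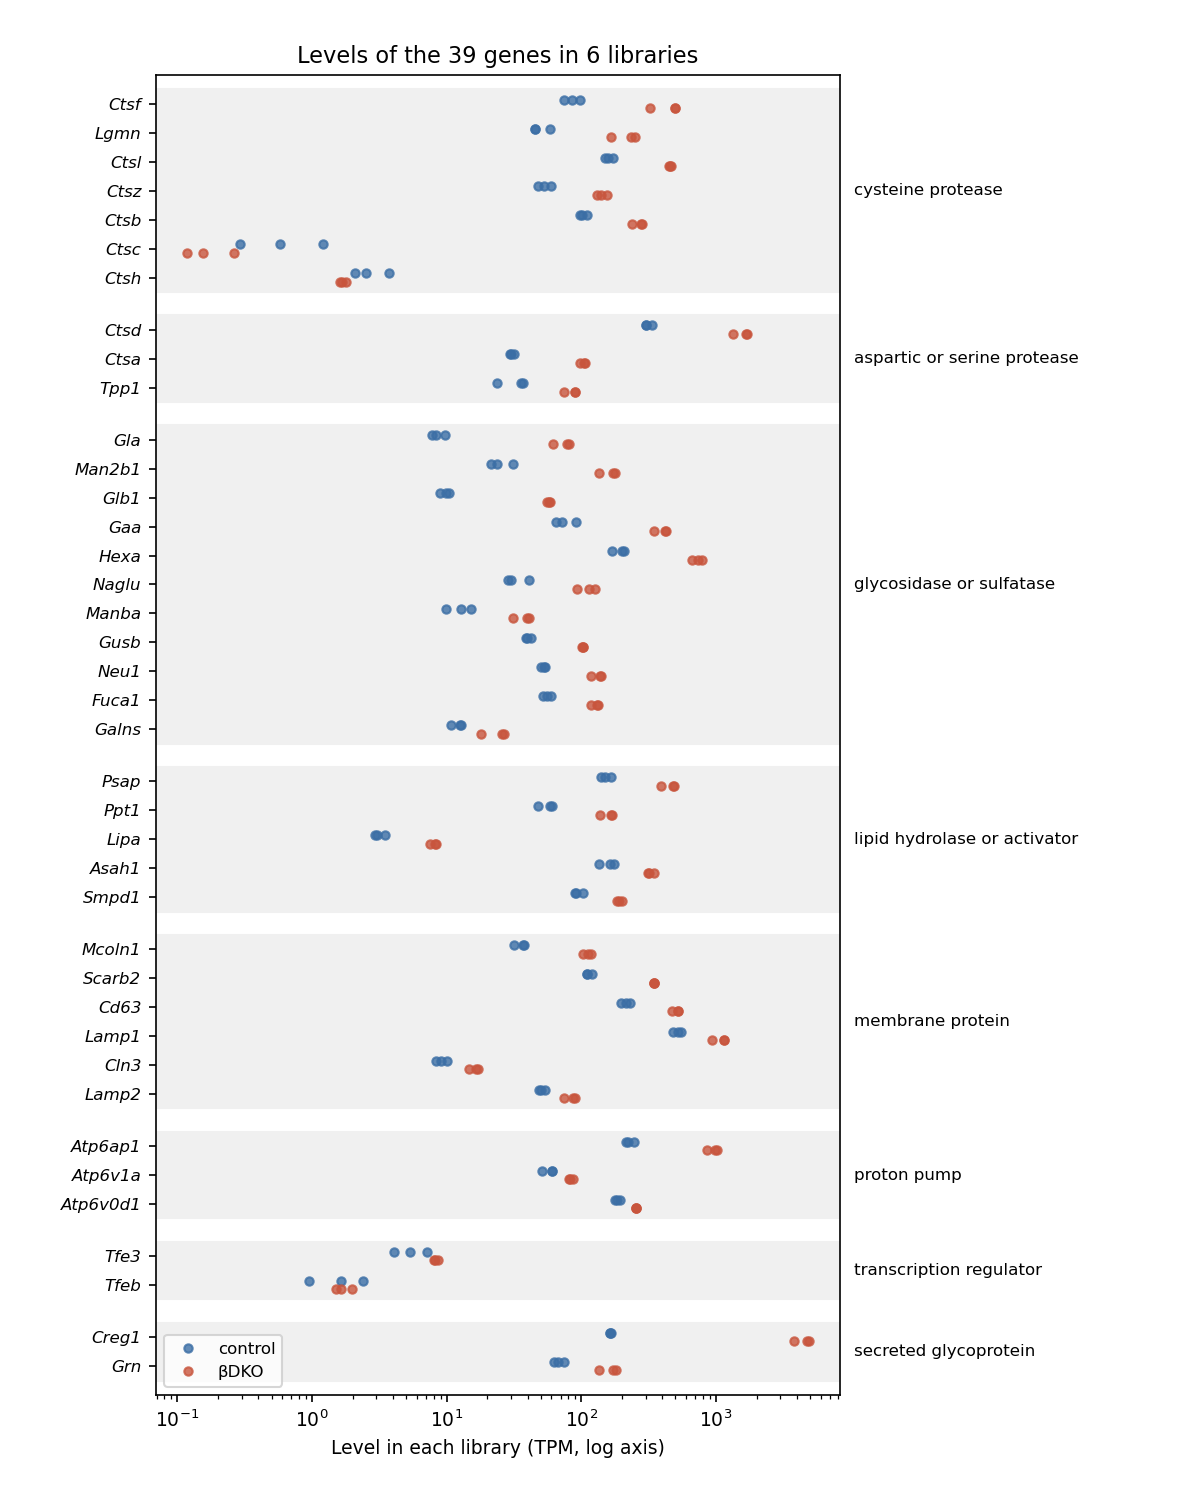
Level of each of the 39 genes in the 6 libraries, in TPM on a log axis, with 3 points per group and genes sorted by role. The βDKO points lie to the right of the control points in all 36 tested genes. On TPM 81.4% of all tested genes were called higher, and the share of all genes without overlap on TPM was not counted. Ctsc and Ctsh have their βDKO points to the left, and the groups of Tfeb overlap.

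Creg1 (chromosome 1, 165763746 to 165775308, plus strand) stood apart from the other genes. Its level was 163.9, 164.1 and 165.6 TPM in the controls, in order of replicate, and 4772, 4896 and 3803 TPM in βDKO, from 4218 to 5826 recovered reads per control library and 83079 to 108483 per βDKO library. The control libraries lay within a narrow range, and βDKO 3 was the lowest of its group but far above every control. On TPM the log2 fold change was 4.75 (limma adjusted p = 1.52e-07, SE 0.10) and it was 3.90 (SE 0.14, 95% interval 3.58 to 4.23, adjusted p = 1.4e-06) on the rescaled scale, where it was rank 9 among the rises of all 10404 genes. Ordered by level within a library, Creg1 was gene 463, 532 and 521 in the controls and gene 10, 10 and 15 in βDKO. It made up 4.95%, 4.5% and 4.86% of the summed TPM of the 39 genes in controls and 31.5%, 31.7% and 29.9% in βDKO.

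The summed TPM of the 39 genes was 3315, 3651 and 3408 in controls and 15161, 15443 and 12742 in βDKO. Without Creg1 the sum was 3151, 3487 and 3243 in controls and 10389, 10547 and 8939 in βDKO. The sum of the 38 genes was thus 3.02-fold higher in βDKO on TPM and 1.67-fold higher after rescaling, with no overlap between groups on either scale.

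**Figure D2:**
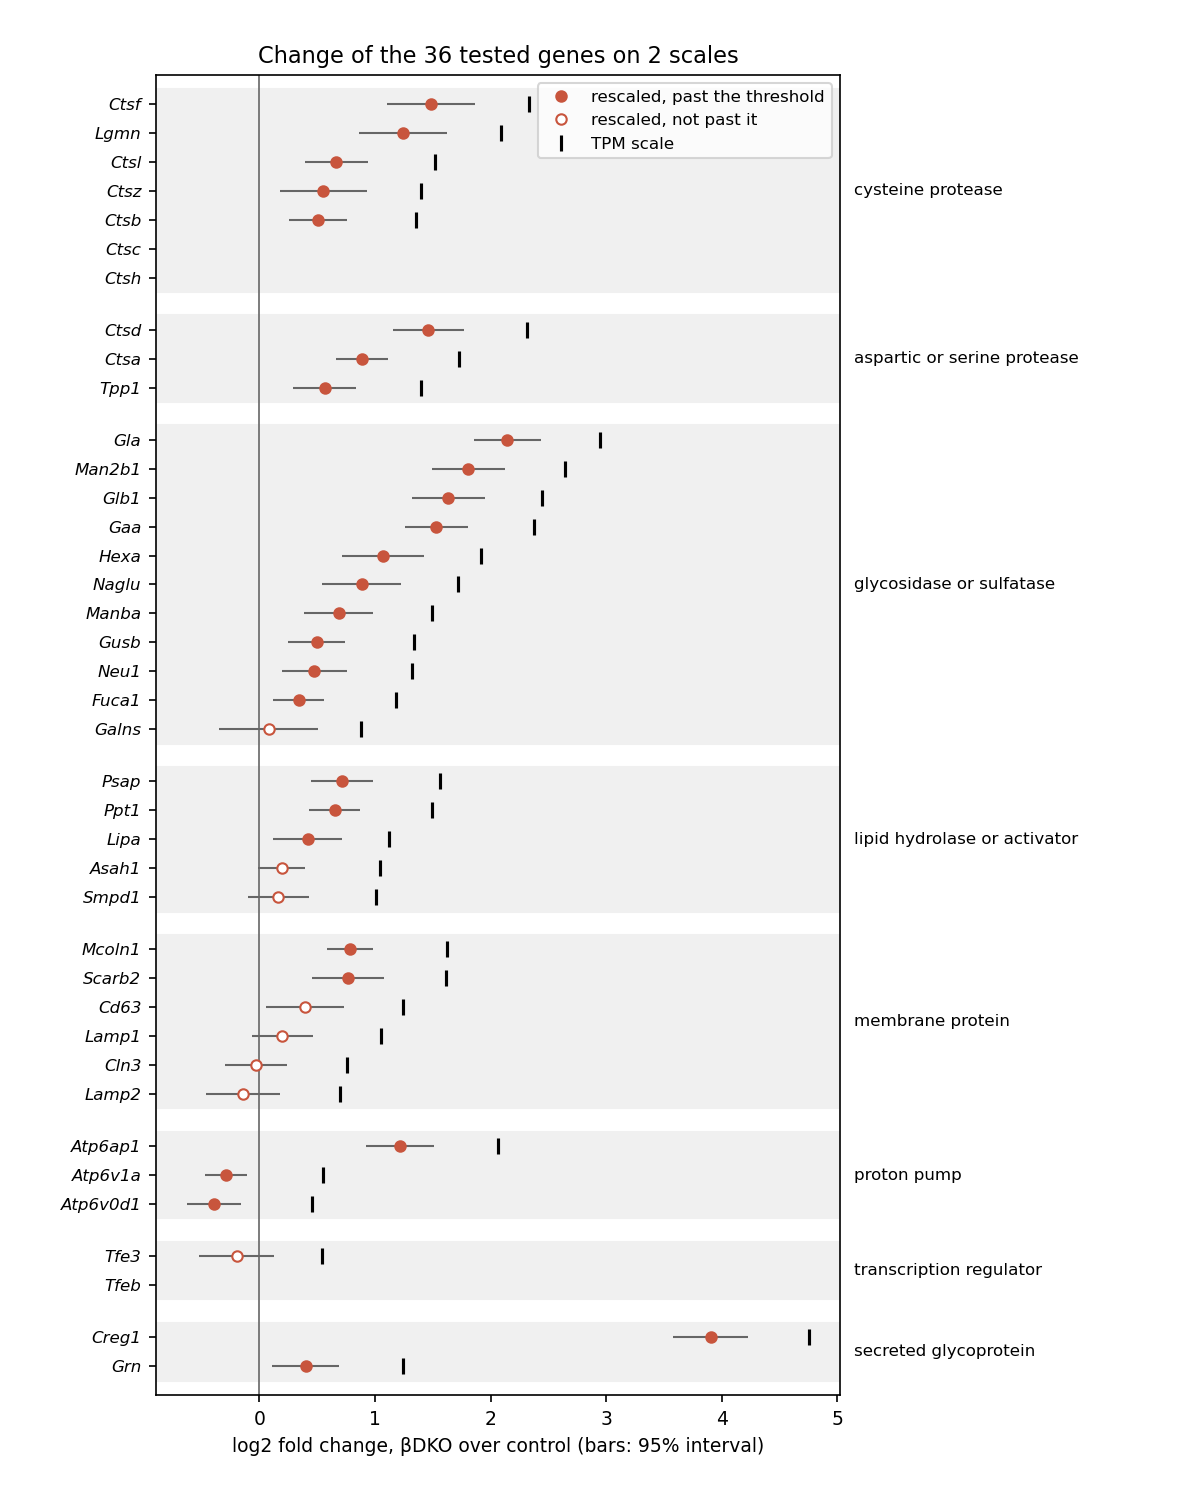
Log2 fold change of the 36 tested genes, βDKO over control, on the rescaled scale (circles with 95% intervals, filled where past the threshold) and on TPM (vertical ticks), sorted by role. Every tick lies to the right of 0, whereas the rescaled values run from −0.40 for Atp6v0d1 to 3.90 for Creg1. The rows of Ctsc, Ctsh and Tfeb are empty because these genes were not tested.

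All 5 tested cysteine proteases rose, where 23.4% of all tested genes did. Ctsf, which encodes cathepsin F, was at 74.4, 84.8 and 97.3 TPM in controls and 496.5, 497.0 and 325.3 TPM in βDKO, and its rescaled log2 change was 1.48 (limma adjusted p = 2.76e-04, SE 0.16). Lgmn encodes legumain, the protease that cleaves after asparagine and processes cathepsins. It was at 45.5, 58.4 and 45.5 TPM in controls and 248.4, 235.5 and 166.2 TPM in βDKO (rescaled 1.25, SE 0.16, adjusted p = 6.57e-04). For both genes βDKO 3 was clearly below βDKO 1 and 2 while the groups stayed apart. Ctsl, for cathepsin L, was more even within βDKO, at 157.0, 170.4 and 149.7 TPM in controls and 450.0, 465.1 and 452.2 TPM in βDKO (rescaled 0.67, SE 0.12, adjusted p = 0.00259). Smaller rescaled rises were measured for Ctsz (0.55, adjusted p = 0.0253) and Ctsb (0.51, adjusted p = 0.00692). The call of Ctsz was lost without control 2, control 3, βDKO 1 or βDKO 2 (adjusted p = 0.0856, 0.0742, 0.0557 and 0.0819). Exons of Ctsl overlap Gm49230 on the same strand, so part of its reads could belong to either gene. Exons of Ctsb, Ctsl and Ctsz, and below those of Hexa, Ppt1, Lamp1, Cln3 and Grn, overlap transcripts on the opposite strand, and whether counting used strand is not given in the sources used here.

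Both remaining cysteine proteases were low in every library and lower in βDKO. Ctsh, the aminopeptidase cathepsin H, was at 2.10, 3.72 and 2.50 TPM in controls and 1.79, 1.66 and 1.62 TPM in βDKO, from 57, 73 and 60 reads against 31, 28 and 27. Fitted without the filter on low values, its change was −0.47 (adjusted p = 0.0662) on TPM and −1.04 (adjusted p = 0.00427) rescaled. Ctsc, for cathepsin C, the activator of serine proteases of immune cells, was at 0.290, 1.20 and 0.575 TPM in controls and 0.265, 0.155 and 0.118 TPM in βDKO, from at most 36 reads in any library. Its unfiltered change was −0.49 (adjusted p = 0.0680) on TPM and −0.70 (adjusted p = 0.0393) rescaled. The groups did not overlap for either gene, but neither fell on both scales.

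Markers of immune cells were also lower in βDKO when summed. Of 17 macrophage and leukocyte markers, the summed level was 121 to 222 TPM in controls and 6.72 to 9.68 TPM in βDKO. The 3 that passed the filter, C1qa, Fcer1g and Cd79a, named here because they alone passed, all fell and made up 113, 169 and 197 TPM of the control sums. C1qa was highest in control 3, Fcer1g in control 1 and Cd79a in control 2. In controls, C1qa was at 86.5, 136.7 and 169.2 TPM, but C1qb at 1.52, 13.8 and 2.42 TPM and C1qc at 1.76, 9.02 and 0.707 TPM. The other 14 markers summed to 7.68, 52.2 and 6.68 TPM in controls and 1.36 to 1.93 TPM in βDKO, so control 2 stood far above the other controls. Ctsc and Ctsh were also highest in control 2, and in controls 1 and 3 both stayed above every βDKO library. The macrophage marker Adgre1 was at 0 in every βDKO library, and the T cell marker Cd3e at 0 in every library except βDKO 2 (0.0668 TPM). In sorted bulk RNA, fewer cells of a type and less RNA per cell cannot be told apart, and the part of these cells in the values of Ctsc and Ctsh was not tested.

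The aspartic and serine proteases also rose, all 3 of them, where 23.4% of all tested genes did. Ctsd encodes cathepsin D, the main aspartic protease of the lysosome, and after Creg1 it had the highest level of the 39 genes in βDKO. It was at 302.5, 334.3 and 300.04 TPM in controls and 1658, 1697 and 1332 TPM in βDKO (rescaled 1.46, SE 0.13, limma adjusted p = 1.03e-04). Ctsa, whose product protects β-galactosidase and neuraminidase in a complex, was at 29.3, 31.8 and 30.0 TPM in controls and 104.9, 105.5 and 97.2 TPM in βDKO (rescaled 0.89, SE 0.10, adjusted p = 2.77e-04). Tpp1, the tripeptidyl peptidase lost in a form of neuronal ceroid lipofuscinosis, was at 23.5, 36.8 and 35.9 TPM in controls and 89.9, 89.7 and 74.5 TPM in βDKO (rescaled 0.56, SE 0.12, adjusted p = 0.00594). Control and βDKO libraries were separate in each case, by least for Tpp1. Exons of Ctsd overlap Gm49369 on the same strand, and those of Ctsa overlap Neurl2 and Pltp on the opposite one.

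Of the 11 glycosidases and sulfatases, 10 rose, where 23.4% of all tested genes did, and Galns did not pass on the rescaled scale. These enzymes take sugars or sulfate groups off glycans and glycolipids one at a time. Gla (chromosome X, 134588149 to 134601125), for α-galactosidase A, was at 7.83, 9.68 and 8.40 TPM in controls and 81.2, 78.3 and 61.8 TPM in βDKO, and its rescaled change of 2.14 (SE 0.12, limma adjusted p = 1.01e-05) was second to Creg1 among the 36. Man2b1 (chromosome 8, 85083270 to 85098282), for lysosomal α-mannosidase, was at 21.2, 31.0 and 23.5 TPM in controls and 177.2, 172.7 and 135.1 TPM in βDKO (rescaled 1.81, SE 0.14, adjusted p = 3.9e-05). In both, the lowest βDKO library was several times the highest control. Glb1 (chromosome 9, 114401076 to 114474898), for β-galactosidase, was at 10.3, 8.91 and 9.89 TPM in controls and 58.9, 57.0 and 55.7 TPM in βDKO (rescaled 1.63, SE 0.14, adjusted p = 6.15e-05). Gaa (chromosome 11, 119267887 to 119285454), for the α-glucosidase that degrades glycogen, was at 65.1, 90.6 and 72.0 TPM in controls and 422.8, 416.6 and 349.0 TPM in βDKO (rescaled 1.53, SE 0.12, adjusted p = 4.1e-05). Among the rises of all 10404 genes these 4 held ranks 108, 187, 232 and 284. Exons of Glb1 overlap Tmppe on the same strand, so part of its reads could belong to either gene.

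The remaining glycosidases spanned a wide range. Hexa, the α subunit of β-hexosaminidase, was the most abundant of the 11, at 201.4, 206.1 and 169.7 TPM in controls and 737.8, 786.5 and 664.9 TPM in βDKO (rescaled 1.07, limma adjusted p = 9.74e-04). Naglu and Manba, for enzymes of heparan sulfate and mannoside breakdown, rose by 0.88 and 0.69 after rescaling. Gusb, Neu1 and Fuca1, for β-glucuronidase, neuraminidase and α-fucosidase, rose by 0.50, 0.48 and 0.34. The calls of the last 2 were lost without control 2, βDKO 1 or βDKO 2, with adjusted p of 0.0543, 0.0524 and 0.0593 for Neu1 and 0.0699, 0.0771 and 0.0953 for Fuca1. Galns, a sulfatase of keratan sulfate, was at 12.8, 10.8 and 12.5 TPM in controls and 25.8, 26.4 and 17.8 TPM in βDKO (rescaled 0.08, adjusted p = 0.758), with βDKO 3 again the lowest of its group.

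Among the 5 genes of lipid breakdown, 3 rose, where 23.4% of all tested genes did. Psap, the precursor of the saposins that present sphingolipids to their hydrolases, was at 139.9, 165.4 and 150.2 TPM in controls and 480.9, 485.8 and 388.2 TPM in βDKO (rescaled 0.71, SE 0.12, limma adjusted p = 0.00184). Ppt1, which removes palmitate from proteins, was at 47.5, 58.3 and 60.8 TPM in controls and 166.4, 167.8 and 138.7 TPM in βDKO (rescaled 0.65, SE 0.09, adjusted p = 0.00106). The groups were far apart for both. Lipa, the acid lipase of cholesteryl esters and triglycerides, was much lower, at 3.01, 2.92 and 3.46 TPM in controls and 8.33, 7.48 and 8.14 TPM in βDKO (rescaled 0.42, SE 0.13, adjusted p = 0.0318). Its call was lost without control 2 (adjusted p = 0.0735), and without βDKO 1, 2 or 3 too few libraries reached the filter for it to be tested. Asah1 (acid ceramidase) and Smpd1 (acid sphingomyelinase) were higher on TPM alone, with rescaled changes of 0.19 (adjusted p = 0.111) and 0.16 (adjusted p = 0.270).

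Of the 6 membrane proteins, 2 rose, where 23.4% of all tested genes did, and the median rescaled change of the 6 was 0.30. Mcoln1, the calcium-permeable channel of the lysosomal membrane, was at 31.6, 37.0 and 37.7 TPM in controls and 112.9, 117.3 and 102.5 TPM in βDKO (rescaled 0.78, SE 0.09, limma adjusted p = 2.5e-04). Scarb2, known as LIMP-2, which carries β-glucocerebrosidase to the lysosome, was at 119.6, 109.8 and 109.3 TPM in controls and 347.5, 345.1 and 347.3 TPM in βDKO (rescaled 0.76, SE 0.13, adjusted p = 0.00267). Both had tight groups with no overlap. Lamp1, a main structural glycoprotein of the membrane, was at 479.6, 551.9 and 522.5 TPM in controls and 1139, 1148 and 940.4 TPM in βDKO, with a rescaled change of 0.20 (SE 0.12, 95% interval −0.07 to 0.47, adjusted p = 0.197). Its partner Lamp2 was at 53.8, 50.6 and 48.8 TPM in controls and 86.0, 89.6 and 74.8 TPM in βDKO (rescaled −0.14, adjusted p = 0.428). Cln3, a protein of the membrane affected in juvenile neuronal ceroid lipofuscinosis, was at 8.34, 9.98 and 9.04 TPM in controls and 14.7, 17.2 and 16.4 TPM in βDKO (rescaled −0.03, adjusted p = 0.855). On TPM these 3 were higher by 1.05, 0.69 and 0.76, beside 0.83 for the typical gene. The tetraspanin Cd63 was at 228.1, 213.7 and 197.0 TPM in controls and 522.1, 519.3 and 474.9 TPM in βDKO (rescaled 0.40, adjusted p = 0.0576), and it passed without control 1 (0.56, adjusted p = 0.0024).

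The 3 pump genes went different ways on the rescaled scale. Atp6ap1, an accessory subunit that helps assemble the pump, was at 222.2, 244.3 and 213.1 TPM in controls and 990.9, 1016 and 852.3 TPM in βDKO, and it rose (rescaled 1.22, SE 0.13, limma adjusted p = 2.05e-04). Atp6v0d1, a subunit of the membrane sector, was at 178.5, 183.9 and 193.6 TPM in controls and 255.0, 252.4 and 254.4 TPM in βDKO. Its log2 fold change was 0.45 (SE 0.07, adjusted p = 6.98e-04) on TPM, −0.40 (SE 0.10, adjusted p = 0.0140) rescaled and −0.43 when the total left out hormone transcripts. Atp6v1a, the catalytic subunit that splits ATP, was at 50.6, 60.0 and 60.1 TPM in controls and 82.6, 81.4 and 86.6 TPM in βDKO, with 0.55 (adjusted p = 0.00139) on TPM, −0.29 (SE 0.08, adjusted p = 0.0194) rescaled and −0.32 without hormone transcripts. Being higher on TPM and lower after rescaling was the case for 6.28% of all tested genes. Without βDKO 1 or βDKO 2 the lower rescaled calls were lost, with adjusted p of 0.0667 and 0.0592 for Atp6v0d1 and 0.109 and 0.102 for Atp6v1a.

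Neither transcription regulator was called on both scales. Tfe3 was at 4.07, 5.31 and 7.16 TPM in controls and 8.59, 8.09 and 8.19 TPM in βDKO, a change on TPM of 0.54 (limma adjusted p = 0.0272, SE 0.19) that was −0.20 after rescaling (adjusted p = 0.289, SE 0.14). The TPM call was lost without control 2 or any of βDKO 1 to 3 (adjusted p = 0.0617, 0.0965, 0.0776 and 0.0762). Tfeb, under the filter, was at 1.64, 2.41 and 0.948 TPM in controls and 1.996, 1.63 and 1.502 TPM in βDKO, from 97 to 202 reads. The groups of Tfeb overlapped, and fitted without the filter its change was 0.06 (adjusted p = 0.841) on TPM and −0.47 (adjusted p = 0.199) rescaled. The activity of both proteins is known to be set mainly by phosphorylation and entry into the nucleus, which RNA levels do not measure.

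Grn encodes progranulin, a secreted precursor that is cut into granulins in the lysosome. It was at 62.4, 74.0 and 66.7 TPM in controls and 172.9, 180.3 and 134.8 TPM in βDKO, without overlap, and rose (rescaled 0.40, SE 0.13, limma adjusted p = 0.0324). The call was lost without control 2, control 3, βDKO 1 or βDKO 2, with adjusted p of 0.0754, 0.0937, 0.107 and 0.123.

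Taking enzymes and activators together, 21 of 24 tested rose, where 23.4% of all tested genes did. None of the 24 was lower on either scale, and their median rescaled change was 0.68. The 12 genes with TCACGTG in the promoter window were all tested; after rescaling 8 of them passed as higher and 2 as lower, with a median of 0.89 and a range from −0.40 to 2.14. The 2 lower ones were Atp6v0d1 and Atp6v1a, and the 2 others that did not pass were Lamp1 and Cln3. Of 23 genes with a window but without the sequence, 21 were tested; 17 passed as higher and none as lower, with a median of 0.56 and a range from −0.20 to 3.90. Whether the sequence bears on the changes was not tested.

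Library βDKO 3 was the lowest βDKO library for 26 of the 36 tested genes after rescaling, which held for 40.5% of all tested genes, and for 27 of 36 on TPM, which held for 45.1%. The median ratio of βDKO 3 to the mean of βDKO 1 and 2 was 0.868 over the 36 genes and 1.001 over all tested genes. Control 2 was the highest control for 20 of the 36 genes on TPM, as for 46.0% of all tested genes, and for 6 after rescaling, as for 28.1%. The ratio for βDKO 3 was 0.667 for Ctsf, 0.696 for Galns, 0.699 for Lgmn and 0.801 for Creg1, but 1.11 for Asah1. The same library had the largest insulin share of the βDKO group, and its summed acinar markers were 24.0 TPM against 157 and 163 TPM in βDKO 1 and 2. The part of these differences in the ratios was not tested.

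Other lysosomal genes were examined in 5 further lists. Of 31 other hydrolases, 27 were tested and 18 rose, where 23.4% of all tested genes did. Ids and Ctso were lower on the rescaled scale alone, and the median rescaled change was 0.77. The largest rises were those of Ggh, which trims folate polyglutamates, and Man2b2, another α-mannosidase. Ggh was at 20.7, 16.2 and 18.6 TPM in controls and 154.6, 167.3 and 113.1 TPM in βDKO (rescaled 2.06, SE 0.20, limma adjusted p = 1.28e-04). Man2b2 was at 53.3, 56.7 and 53.5 TPM in controls and 379.9, 373.8 and 321.7 TPM in βDKO (rescaled 1.85, SE 0.11, adjusted p = 1.3e-05). For both genes βDKO 3 was the lowest of its group and every βDKO library lay above every control. One of the 18, Prcp, passed the filter through the βDKO libraries alone, so whether it was tested depended on its level there. Fitted without the filter, Prcp was higher with a limma adjusted p of 6.02e-05 on TPM and 1.07e-04 rescaled.

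Other membrane proteins and pump subunits were called in both directions after rescaling, where 23.4% of all tested genes were higher and 21.1% lower. Of 17 tested membrane proteins 4 rose (Mcoln3, Npc1, Glmp and Slc38a9) and 6 were lower on the rescaled scale alone (median −0.01). Mcoln3, a relative of Mcoln1, rose by 1.502 and the cholesterol exporter Npc1 by 0.94 after rescaling. Mcoln3 and Slc38a9 passed the filter through the βDKO libraries alone, so whether they were tested depended on their level there. Fitted without the filter, the rescaled limma adjusted p was 0.00998 for Mcoln3 and 0.0657 for Slc38a9. Of 15 tested V-ATPase subunits, 1 rose, Atp6v0e2 (rescaled 0.48), and 7 were lower on the rescaled scale alone (median −0.28). Atp6v0c and 4 other subunits of that list were listed at 0 in all libraries, so they add nothing to the sum below. Whether these zeros come from the counting or the annotation was not tested. The summed TPM of the V-ATPase list was 2272, 2405 and 2358 in controls and 3411, 3476 and 3262 in βDKO, 1.44-fold higher on TPM and 0.796 of the control after rescaling.

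Of 15 sorting genes 2 rose, and Igf2r, Vps35 and Cln6 were lower on the rescaled scale alone. Gnptg, a subunit of the phosphotransferase that tags enzymes with mannose 6-phosphate, was at 209.3, 235.5 and 220.5 TPM in controls and 858.4, 880.0 and 829.0 TPM in βDKO (rescaled 1.09, limma adjusted p = 1.01e-04). The other was Cln8 (rescaled 0.38). In the list named MiT/TFE and mTORC1 control, the family members Mitf and Tfec did not pass the filter. The 19 tested genes of that list therefore held no member of the MiT/TFE family. Of these 19, 3 rose, the GTPase gene Rragb (1.24), Fnip1 (0.50) and Tsc1 (0.49). Rraga and Lamtor3 were lower on the rescaled scale alone. In these 5 lists together, 28 of 93 tested genes rose, where 23.4% of all tested genes did, and none fell on both scales, as 4.61% of all tested genes did. The median rescaled change was 0.04, beside 0.03 over all tested genes.

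**Figure D3:**
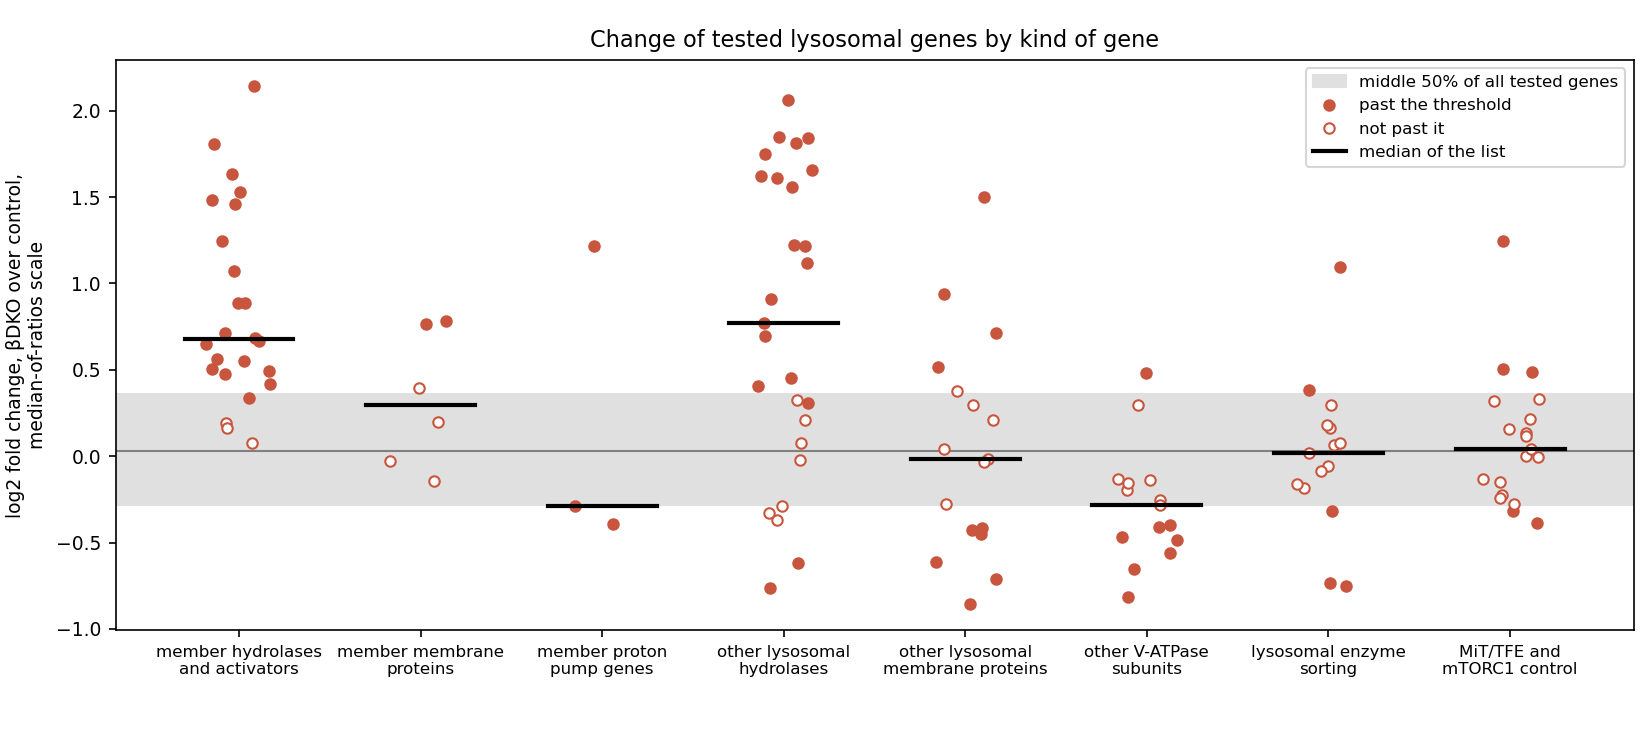
Rescaled log2 fold change, βDKO over control, of tested lysosomal genes by kind, with Creg1, Grn, and Tfe3 left out of the first 3 columns. Points are genes, filled where past the threshold, bars are medians, and the grey band spans the lower to the upper quartile of all tested genes. Both hydrolase columns have medians of 0.68 and 0.77, above the band, whereas the medians of the other V-ATPase subunits and the sorting genes are −0.28 and 0.02.

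The cells were checked against markers of other cell types. All 8 β-cell markers were detected in every library, and 6 of them fell in βDKO, among them Ins1 and Ins2. The 3 tested α-cell markers fell, led in level by Gcg, as did 3 of the 4 δ- and PP-cell markers. None of the 9 tested acinar markers passed on either scale. Their sum ranged from 18.6 to 607 TPM in controls and from 24.0 to 163 TPM in βDKO, so that control 1 stood above the others. Among 9 endothelial and stromal markers, the single one tested, Esam, rose, from 5.81 to 9.19 TPM in controls to 23.8 to 28.6 TPM in βDKO (rescaled 0.91, limma adjusted p = 0.00427). The other 8 summed to 0.259 to 2.05 TPM in controls and 0.104 to 0.856 TPM in βDKO, and the endothelial marker Cdh5 was at 0 in every βDKO library.

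**Figure D4:**
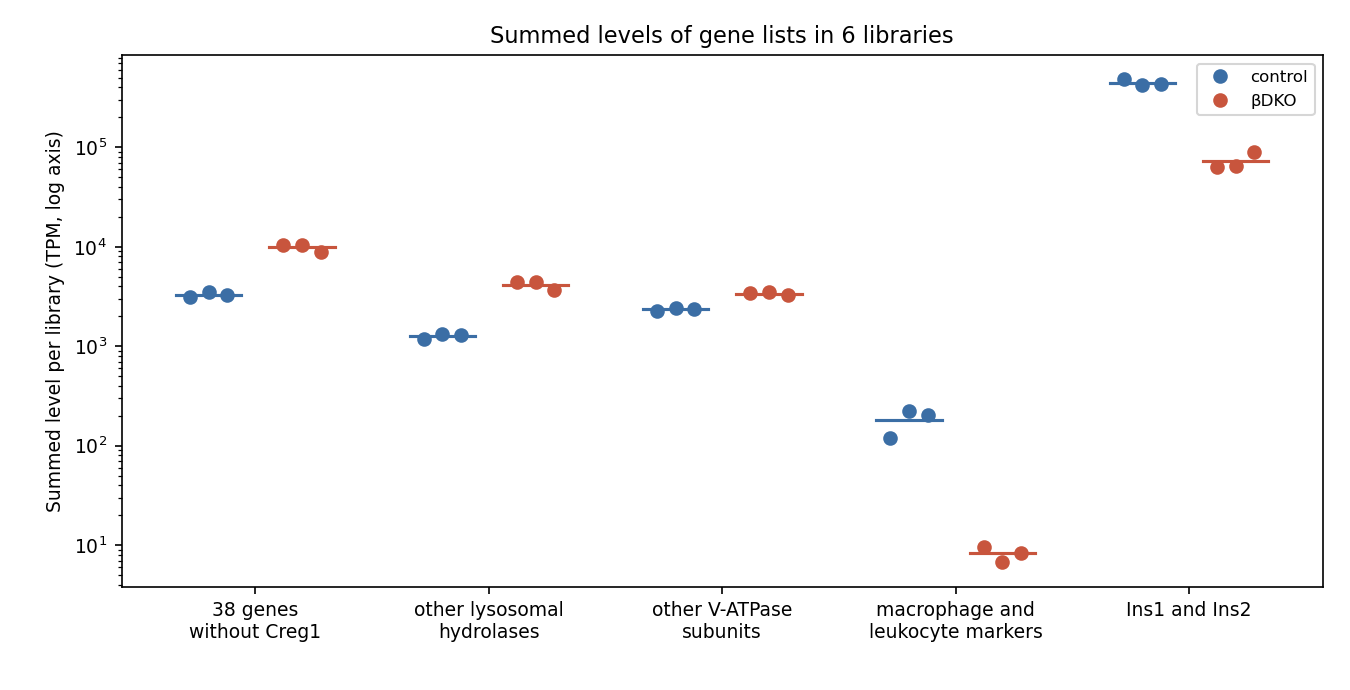
Summed TPM per library on a log axis for 5 gene lists, with 3 points per group and a bar at the group mean. The 38 genes without Creg1, the other hydrolases and the other V-ATPase subunits are higher in every βDKO library. The typical gene was also higher on TPM. The macrophage and leukocyte markers and the insulin transcripts are lower in every βDKO library.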

How the data were processed

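The authors deposited TPM values per gene, 1 column per library, per the file headers. The submitters' processing notes name FastQC, Trimmomatic, HISAT2, HTSeq, DESeq2 and mm10. For versions, roles, gene lengths and strand use, nothing is given in the sources used here. Of 24421 rows, 6614 were at 0 throughout and 27 had names turned into dates. Every column belonged to a sample.

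TPM were also divided by median-of-ratios size factors (0.643 to 1.38). TPM hold no counts, so log2(value + 1) was tested with limma 3.58.1 (R 4.3.3; trend, robust, two-sided) in the 10404 genes that reached 5 TPM in 3 or more libraries. P-values were adjusted by Benjamini-Hochberg over all of them at 0.05. The procedure was also run on simulated reads with fewer changed genes than were called here, so that run does not give its error rate in these data. Reads were recovered from the steps of the values, apart from a factor shared by all libraries of a gene: of 16625 rows detected in 2 or more libraries, 16625 (100%) gave whole reads within 0.01 read. Sorting of samples into groups followed the titles.

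The genes and lists were chosen with earlier results of these data known. Values in every library are given for Creg1, Tfeb, Tfe3, the 5 largest and 5 smallest rescaled changes and up to 3 genes per role by adjusted p. Of the other lists, up to 2 genes that rose are named. Values of Hexa, Galns, Lamp1, Ctsc and Ctsh, and the names behind counts of 5 or fewer, were added after their values were seen. Alternatives were another pseudocount (0.1), other filters (1 TPM or none), no trend or robust step, a total without hormone transcripts, a replicate block, averaging βDKO 1 and 2, leaving out each library and, chosen after seeing the data, limma-voom on the recovered reads. Gene positions are from the GENCODE annotation of GRCm38.p6, the patch release of mm10, and promoters from RefSeq on the same build.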

Additional observations from a re-analysis of the deposited data

How the results depend on the processing

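The 26 genes that rose were the same with a pseudocount of 0.1, a filter of 1 TPM, no trend or robust step, or limma-voom on recovered reads. Over all settings the rescaled change of Creg1 stayed between 3.83 and 4.01. With βDKO 1 and βDKO 2 averaged, 21 rose and 0 were lower after rescaling, and all genes higher after rescaling numbered 1254 in place of 2432. Without a filter 24 rose (Ctsz and Grn were lost) and 4 were lower after rescaling, and the count of genes lower on TPM was 1098, or 757 at 1 TPM, against 480. With a total free of hormone transcripts in place of TPM, 2159 genes were higher and 2337 lower, 27 of the 36 genes were higher and 2 lower, and 5 turned negative, Lamp2 (−0.18), Cln3 (−0.060), Atp6v0d1 (−0.43), Atp6v1a (−0.32) and Tfe3 (−0.24). That scale leaves Ins1 and Ins2 out of the total. Leaving out 1 library gave 1211 (without βDKO 1) to 2622 genes higher after rescaling, 0 to 2 of the 36 lower, and changes of −0.24 to 0.00359 for Lamp2, −0.090 to 0.04709 for Cln3 and −0.047 to 0.25 for Galns. The cause of these moves was not tested. Same-numbered samples correlated at −0.0636, −0.0256 and 0.207 in their deviations from the group means, and other pairs at −0.257 to 0.243. With 3 samples per group these values cannot decide whether the numbers pair samples. With a replicate block 25 of the 36 genes were higher (Lipa was lost, adjusted p = 0.0585) and 1 lower after rescaling, 36 were higher and 0 lower on TPM, and 2228 genes were higher and 2026 lower after rescaling. Groups of 3 limit every p to the spread among few samples, and Ctsc and Ctsh rest on at most 73 reads per library.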
